A study of Rattus norvegicus with 24 samples.

Results

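The kinesin genes were described in the frontal cortex of 24 adult male Sprague-Dawley rats that inhaled a tungsten aerosol or none. Members were the reference genes whose name starts with Kif, 43 of the 32883 reference genes in the tables, of which 13 are motors of mitosis, 17 are motors of transport and 13 are other genes of that name. Control rats (0 mg/m3), Low rats (5 mg/m3) and High rats (80 mg/m3) numbered 8 each, and every rat gave 1 strand-specific library of polyadenylated RNA. Control libraries are numbered 49 to 56, Low libraries 57 to 64 and High libraries 65 to 72, and the tissue was taken 24 hours after exposure. Every sample title also carries the word Repeat, which was not interpreted here. Each value is a scaled coverage, based on the mean read depth per base of a gene. This depth was divided by the summed depth of all reference genes in that library and multiplied by 1000000. Depth per base takes gene length into account, but the order of some genes changed with the measure used.

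Kinesins are motor proteins that walk along microtubules. In a dividing cell they build the spindle, move the chromosomes and cut the daughter cells apart, and their genes are transcribed mainly in dividing cells. In a neuron, which no longer divides, other kinesins carry vesicles, mitochondria and receptors from the cell body into axons and dendrites, and cytoplasmic dynein carries cargo back. Mature cortex is therefore known for abundant transport motors and few mitotic ones. In bulk tissue, fewer cells of a type and less RNA per cell cannot be told apart.

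Promoters of both classes are shown because mitotic genes are known to share promoter elements that direct their use in dividing cells. RefSeq sequence on the GRCr8 build, from 250 bases before to 50 after each gene start, was found for 33 of the 43 members. Capitals mark the cell-cycle homology region (CHR, TTTGAA or TTCGAA), the CCAAT box (CCAAT) and the GC box (GGGCGG), each on either strand. The CHR and CCAAT box are elements known from promoters of mitotic genes. Shown are the 2 mitotic members with the highest level among those holding a CHR match and the 2 transport members with the highest level among those with an entry. Kif23 lies at chr8:71320535-71320834 on the minus strand, Kif22 at chr1:191080829-191081128 on the minus strand, Kif1a at chr9:101094728-101095027 on the minus strand and Kif5c at chr3:54441057-54441356 on the plus strand.
Kif23: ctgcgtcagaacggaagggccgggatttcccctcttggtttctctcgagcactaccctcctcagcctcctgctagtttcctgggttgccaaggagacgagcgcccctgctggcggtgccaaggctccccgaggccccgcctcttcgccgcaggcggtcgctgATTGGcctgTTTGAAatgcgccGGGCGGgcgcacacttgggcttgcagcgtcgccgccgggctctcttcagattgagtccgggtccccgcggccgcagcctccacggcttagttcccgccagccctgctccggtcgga
Kif22: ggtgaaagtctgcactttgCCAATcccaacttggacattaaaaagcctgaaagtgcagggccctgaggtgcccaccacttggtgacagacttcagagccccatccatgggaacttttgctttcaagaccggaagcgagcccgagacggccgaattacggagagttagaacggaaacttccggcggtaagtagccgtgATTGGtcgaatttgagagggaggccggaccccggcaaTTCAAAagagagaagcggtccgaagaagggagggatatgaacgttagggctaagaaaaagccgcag
Kif1a: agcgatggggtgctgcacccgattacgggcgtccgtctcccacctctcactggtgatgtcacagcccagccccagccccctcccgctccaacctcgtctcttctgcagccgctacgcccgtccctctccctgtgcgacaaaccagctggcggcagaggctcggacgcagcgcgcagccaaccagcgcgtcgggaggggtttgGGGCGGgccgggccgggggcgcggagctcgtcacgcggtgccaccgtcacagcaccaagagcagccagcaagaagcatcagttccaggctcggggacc
Kif5c: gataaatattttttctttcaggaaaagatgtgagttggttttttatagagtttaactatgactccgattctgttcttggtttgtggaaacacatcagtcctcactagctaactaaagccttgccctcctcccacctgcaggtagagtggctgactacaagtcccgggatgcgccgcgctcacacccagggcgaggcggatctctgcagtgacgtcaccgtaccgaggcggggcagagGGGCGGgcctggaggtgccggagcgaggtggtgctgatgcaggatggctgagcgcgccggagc

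A CHR match was held by 6 of the 11 mitotic members with an entry (Kif4a, Kif15, Kif20b, Kif22, Kif23 and Kifc1), by 0 of 12 transport members and by 3 of 10 other members (Kif24, Kif26b and Kif28p). Over all 33469 promoters of the table the share was 19.7%. A CCAAT box was held by 7 of 11 mitotic and 3 of 12 transport members, against 37.5% of all promoters. A GC box was held by 7 of 11 mitotic and 11 of 12 transport members, both shares above the 33.1% of all promoters. These are matches of letters and not sites of binding. The members without an entry were Kif2b, Kif5a, Kif7, Kif13b, Kif14, Kif19, Kif21b, Kif26a, Kifc2 and Kifc3.

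Transport motors made up 91.2% of the summed level of the 43 genes and mitotic motors 0.576%. The sum over the 17 transport members was 2047 on average and that over the 13 mitotic members 12.9. All 17 transport members had a mean over the rats of at least 1, the minimum for testing, against 4 of 13 mitotic members (Kif20a, Kif23, Kif22 and Kifc1) and 9 of 13 other members. Kif26b passed only through Low, with a mean of 1.38 there, 0.912 in Control and 0.995 in High, so it had to be high in Low, and the 30 that passed are not all members. The member just inside was Kifc1 at 1.03 and the one just outside Kif15 at 0.987.

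Kif5a (ENSRNOG00000005299, chromosome 7), the neuronal heavy chain of kinesin-1, stood highest among the members with a mean of 665, rank 128 of all reference genes. Kif1a (ENSRNOG00000023993, chromosome 9), the kinesin-3 motor of synaptic vesicle precursors, followed at 310, and the kinesin-1 chain Kif5c (ENSRNOG00000004680, chromosome 3) at 282. Kifc2, a motor of the C-terminal class that walks to the minus end, had 196 and the widely expressed kinesin-1 chain Kif5b 110. Kif3c of the kinesin-2 class had 105, Kif1c 91.2, Kif21a 66.9, Kif1b 60.7 and Kif3a 44.6. The order depended on the measure. In FPKM, explained below, the Control medians were 82.7 for Kif1b, 82.5 for Kifc2 and 38.5 for Kif5b. In scaled coverage Kif1b lay below both Kifc2 and Kif5b. The lower transport members were Kifc3 (33.5), Kif21b (29.9), Kif3b (16.6), Kif13b (12.1), Kif13a (11.1), Kif17 (8.30), a motor of dendritic receptor vesicles, and Kif16b (4.61), a motor of early endosomes. Of the 29 pairs of neighbours in the order of all members tested, 8 kept their order in every rat, Kif5a over Kif1a, Kif5c over Kifc2 and Kifc2 over Kif5b among them. The other 21 pairs changed places in at least 1 rat, as Kif5b and Kif3c did in 10 of 24.

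**Figure D1:**
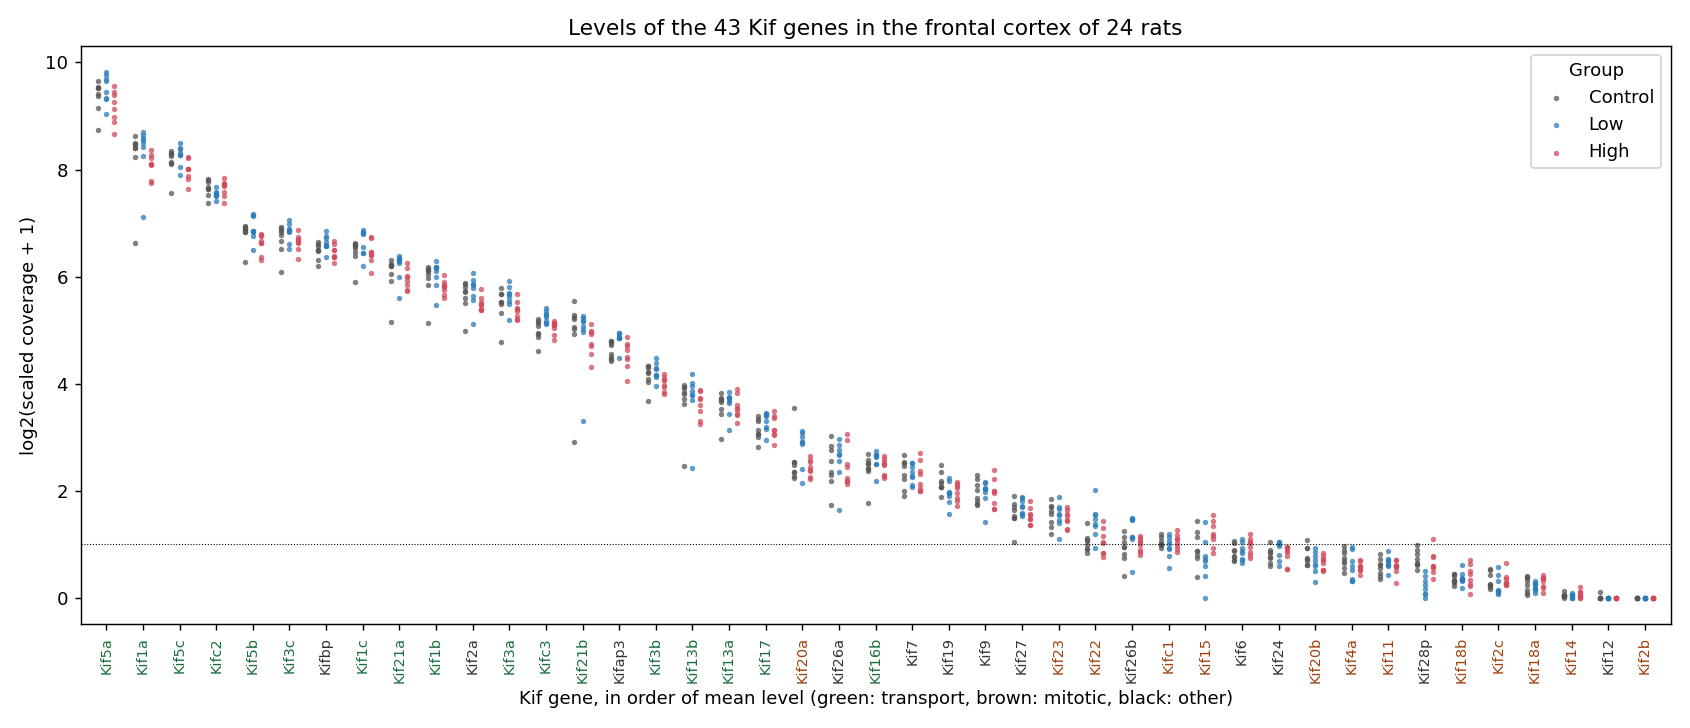
Scaled coverage of the 43 Kif genes on a log2(value + 1) axis, 1 point a rat and 1 column of points for each group of 8 rats, ordered by mean level. Transport names are green, mitotic names brown and other names black, and the dotted line marks a scaled coverage of 1. Kif5a lies highest, mitotic genes begin at Kif20a (mean 5.22), and Kif2b is at 0 in every rat.

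The highest mitotic member was Kif20a (mean 5.22), the motor that brings the chromosomal passenger complex to the midzone of the dividing cell. Kif23 (1.90), a part of centralspindlin, Kif22 (1.31), which pushes chromosome arms, and the minus-end motor Kifc1 (1.03) came next. Kif15 (0.987) and Kif11 (0.523), which keep the spindle poles apart, Kif20b (0.639), Kif4a (0.560), Kif18b (0.300), Kif2c (0.239), Kif18a (0.194) and Kif14 (0.0357) lay below 1. Kif2b was listed at 0 in all 24 rats.

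Among the other members, Kifbp (91.4), a protein that binds kinesins and holds them off the microtubule, Kif2a (49.0), a microtubule depolymerase, and Kifap3 (24.7), the cargo-binding subunit of the Kif3a and Kif3b motor, were the highest. Kif26a (4.83), the cilium and hedgehog motor Kif7 (4.00), Kif19 (3.11), Kif9 (2.95), Kif27 (2.06) and Kif26b (1.10) also passed the minimum. Kif6 (0.863), Kif24 (0.788) and Kif28p (0.476) did not, and Kif12 was above 0 in 1 rat of 24. Genes on the opposite strand overlap several members, Dctn2 over 809 bases of Kif5a, AC124874.1 over 4508 bases of Kifap3 and RGD1311745 over 3529 bases of Kif15, and no source used here says whether coverage was counted by strand.

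The libraries were not alike outside the kinesins. The summed coverage of reference genes per library, in units of 1000000, was 1.64 to 3.07. Assembled loci, which are transcribed regions built from the reads, numbered 0 in every Low table and 46334 to 159573 in those of Control and High, so the Low dose and the kind of table cannot be told apart. In Control 49 and Low 57, 49.2% and 33.7% of the 15644 genes tested lay below all 7 other rats of their group, against 1.98% to 26.9% in the other 22 rats. Libraries 56 to 62 had 1.15% to 1.76% of their reference coverage on the minus strand of the mitochondrial genome, against 0.476% to 0.712% in the other 17. The tissue carried neuron and glia markers, with neuron marker sums of 1345 to 2274 over 6 genes.

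Low against Control asked whether the lower concentration moved the kinesins. Of the 30 members tested, 1 rose, Kifc3, and 0 fell, while 6.11% of all 15644 genes tested were called in either direction and 1.23% were called higher. The other transport motors were not called. At an unadjusted p under 0.05 there were 5 members, Kifc3, Kif22, Kifbp, Kifap3 and Kif26b, which reached the minimum only through Low, against 18.4% of all genes, so the members' share lay near the background.

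Kifc3 (ENSRNOG00000014087, chromosome 19), a minus-end motor of vesicle transport, had a lowest, median and highest level of 23.5, 31.4 and 35.8 in Control and of 33.5, 37.4 and 41.6 in Low. The groups overlapped, with Low mostly above Control. The log2 difference was 0.26 ± 0.08 (SE, n = 8 against 8; limma, adjusted p = 0.039), a fold of 1.20. In the fits that left out 1 rat each the adjusted p ran from 0.0156 to 0.0883, and 8 of the 24 lost the call, those without Control 49, 50, 51 or 53 or Low 59, 60, 62 or 64. With libraries 56 to 62 as a covariate the difference was 0.23 with an adjusted p of 0.424, and without Control 49 and Low 57 it was 0.22 with 0.0756.

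The 17 transport members had a median log2 difference of 0.13, and 15 of them were higher in Low, beside a median of 0.06 and 66.5% higher over all genes tested. Kifc2 ran against them. It had a lowest, median and highest level of 164, 201 and 227 in Control and of 169, 185 and 203 in Low, and its log2 difference was -0.11 ± 0.07 (adjusted p = 0.394). Kif21b, the other transport member that was not higher, stood at -0.0028 with an SE of 0.29. For the 4 mitotic members tested the median was also 0.13, 2 of them being higher in Low. Over the 12 mitotic members above 0 in any rat, 8 of them under the minimum, it was -0.03.

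Kifbp, the kinesin-binding protein, had a lowest, median and highest level of 72.3, 89.4 and 99.5 in Control and of 81.6, 96.9 and 114 in Low, a log2 difference of 0.16 ± 0.07 (adjusted p = 0.238). Kif26b, a kinesin of kidney development, had 0.319, 0.937 and 1.37 in Control and 0.389, 1.47 and 1.83 in Low. Its log2 difference of 0.30 is given as a description, since the minimum chose it for its Low level. Both pairs of groups overlapped. Kif19, a motor that shortens microtubules in cilia, gave the lowest difference, -0.21 ± 0.10 (adjusted p = 0.273), from medians of 3.31 in Control and 2.89 in Low.

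High against Control asked the same of the higher concentration. Limma called 0 of the 30 members and 0.0% of all genes, and at an unadjusted p under 0.05 there were 0 members and 2.11% of all genes. The exact rank-sum test over all genes also called 0 members and 0 genes, with 3 members and 5.67% of all genes at an unadjusted p under 0.05. The 17 transport members had a median log2 difference of -0.08, with 14 lower and 3 higher, and of 0.10, with 2 lower and 15 higher, when the coverage was not scaled by library. With median-of-ratios scaling it was -0.04, with 11 lower and 6 higher. Over all genes the median was -0.03 and 36.0% were higher, and without scaling the median of all genes was 0.14. The 4 mitotic members tested had a median of -0.03 and the 12 above 0 one of 0.01.

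Kif5a gave the lowest difference, -0.20 ± 0.14 (adjusted p = 0.999). Its lowest, median and highest levels were 427, 708 and 805 in Control and 406, 583 and 753 in High. Kif5b gave -0.19 ± 0.10, from 76.1, 116 and 123 in Control and 78.8, 99.3 and 110 in High. The groups overlapped for both genes. High 65, 66 and 67 held the lowest Kif5a levels of their group, 505, 472 and 406 against 557 to 753 in the other High rats, and their striatum marker sums, 703 to 1160, were the highest of the group, against 175 to 362. All 6 striatum markers were measured, and their part in the kinesin levels was not tested. Kif26b, with 0.08 ± 0.14, and Kifc3, with 0.05 ± 0.08, gave the highest differences, and neither was called.

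Low against High compared both concentrations directly. Of the 30 members, 1 was called, Kifap3, which was higher in Low, beside 11.7% of all genes called in either direction and 5.3% called higher. At an unadjusted p under 0.05 there were 9 members, against 29.1% of all genes. The 17 transport members had a median log2 difference of 0.20, with 16 higher in Low, and of -0.0078, with 8 higher, without scaling. Over all genes the median was 0.09 with 69.9% higher, and without scaling it was -0.12. The 4 mitotic members tested had a median of 0.21, with 3 higher, and the 12 above 0 one of -0.01. This comparison shares its Low and High rats with the other comparisons.

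Kifap3 (ENSRNOG00000002544, chromosome 13), which joins the Kif3a and Kif3b motor to its cargo, had a lowest, median and highest level of 21.2, 28.0 and 30.04 in Low and of 15.5, 22.7 and 28.4 in High. The groups overlapped, and Low 61 alone of the Low rats lay below 27.7. The log2 difference was 0.30 ± 0.10 (limma, adjusted p = 0.049), a fold of 1.23. The adjusted p ran from 0.0162 to 0.104 in the fits that left out 1 rat each, and 19 of the 24 lost the call. It was kept without Control 49, Low 61 or High 68, 70 or 71, and lost without any other rat. With libraries 56 to 62 as a covariate the difference was 0.35 with an adjusted p of 0.276, with median-of-ratios scaling 0.20 with 0.194, and without scaling 0.09 with 0.893. High 65 to 67, with the high striatum marker sums, held 15.5 to 21.1 and High 68 to 72 21.7 to 28.4, and the part of these markers in the difference was not tested. Kif3a and Kif3b, its motor partners, gave 0.24 ± 0.12 and 0.22 ± 0.09 (adjusted p = 0.178 and 0.0963).

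The 3 kinesin-1 chains had like differences, none past the threshold. Kif5a had a lowest, median and highest level of 527, 751 and 902 in Low, and its log2 difference from High was 0.35 ± 0.14 (adjusted p = 0.101). Kif5c had 239, 312 and 358 in Low and 198, 256 and 299 in High, a difference of 0.29 ± 0.10 (adjusted p = 0.0722). Kif5b had 89.4, 114 and 143 in Low, a difference of 0.29 ± 0.10 (adjusted p = 0.0706). High 65 to 67, which also held the lowest Kif5a of their group, had 198 to 234 of Kif5c, against 256 to 299 in High 68 to 72. Kif5b was not lowest in these rats, with 81.3 to 109.6 against 78.8 to 109.2. Kif1a had 138, 369 and 417 in Low and 213, 273 and 330 in High, a difference of 0.27 ± 0.23 (adjusted p = 0.461), with Low 57 below every High rat and the other Low rats mostly above. Kif3b, a kinesin-2 motor of cilia and axons, had 14.5, 17.6 and 21.3 in Low and 13.1, 15.3 and 17.2 in High. Kifc2 was the transport member that ran the other way, with -0.11 ± 0.07 (adjusted p = 0.302).

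**Figure D2:**
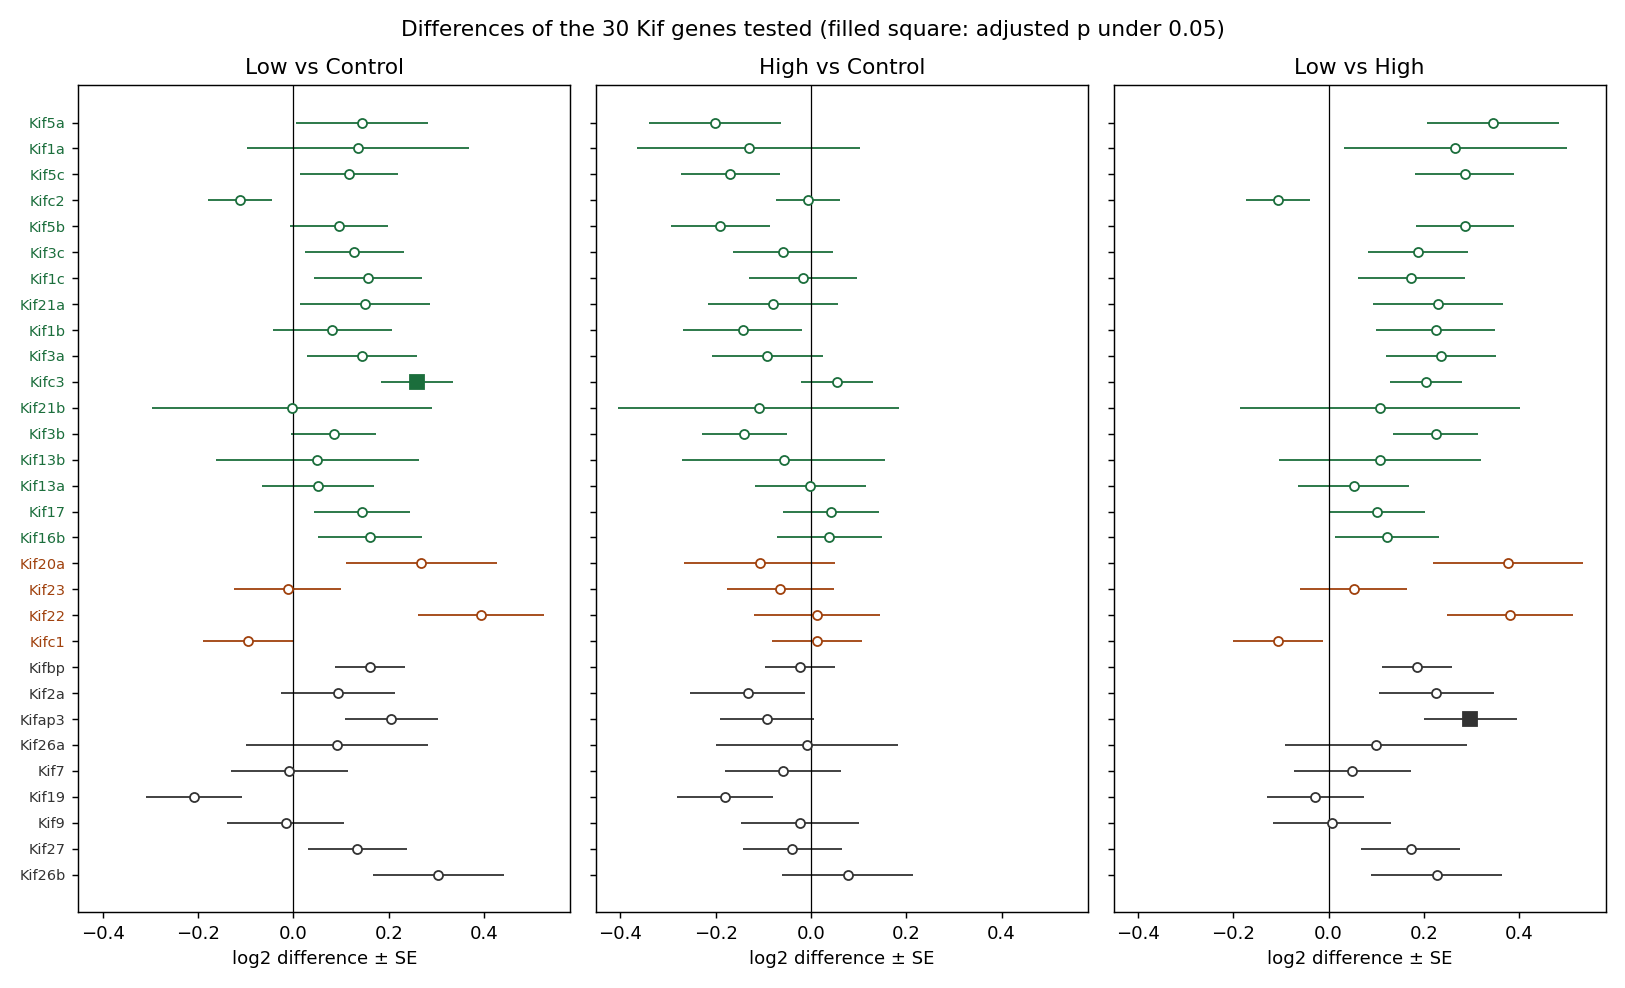
Log2 differences of scaled coverage with their SE for the 30 Kif genes tested, from limma, in Low against Control, High against Control and Low against High. Filled squares are the calls, Kifc3 (0.26) in Low against Control and Kifap3 (0.30) in Low against High, and open circles did not pass. Transport genes (green) lie mostly right of 0 in both comparisons of Low and left of 0 in High against Control, where they turn right of 0 (median 0.10) without scaling, as those of Low against High turn to -0.0078. Mitotic names are brown and others black.

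The transport motors were low in Control 49 and Low 57. In Control 49 all 17 transport members lay below all 7 other Control rats, and in Low 57 15 of 17 lay below all 7 other Low rats, beside the 49.2% and 33.7% of all genes given above. In the other 22 rats 0 to 7 transport members lay below their group. The lowering was not particular to the transport motors. Of the 9 other members tested, 7 lay below their group in Control 49 and 7 in Low 57. Their median share of the other rats' median was 61.3% and 67.9%, beside 58.9% and 66.6% for transport members. Kif26b stood at 33.8% and 22.3%. The members were not lowered alike. Kif21b, a kinesin-4 motor chosen here after its values were seen, stood at 6.57 in Control 49 and 8.82 in Low 57, 18.4% and 25.3% of the median of the other rats of the group. Kif1a stood at 97.8 and 138, 27.7% and 36.7%. Kif13b, a kinesin-3 motor, stood at 33.3% and 32.3%, while Kifc2 kept 80.9% in Control 49 and was not below the other rats in Low 57.

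Kif20a and Kif22 were not below the other rats in either library, and of the 4 mitotic members tested only Kif23 was, at 61.7% and 58.0%. Neuron markers summed to 1522 in Control 49, the lowest of its group, and to 2050 in Low 57, above the Low median of 1945. The kinesin light chain and adaptor list, at 3045, and the astrocyte and endothelium markers, at 709.7 and 44.8, were also the lowest of their group in Control 49. So were the oligodendrocyte precursor and neuroblast markers, at 187 and 13.5. In Low 57 the striatum, endothelium and neuroblast markers, at 243, 64.4 and 12.2, were the lowest of their group. The cytoplasmic dynein list summed to 3373 and 4011, both inside the range of their groups. Choroid plexus markers summed to 71.8 in Control 49 and to 6.85 in Low 57, against medians of 6.50 in Control and 8.66 in Low. The part of these in the kinesin levels was not tested.

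Leaving out both rats, an alternative chosen after the data were seen and in part for their low kinesins, raises the Control and Low means of these genes by its construction, so its counts are a description. It gave 17 of 31 members called in Low against High, all higher in Low, beside 28.8% of all genes (21.3% higher). Of these 13 were transport members, with log2 differences of 0.44 for Kif1a, 0.41 for Kif5a and 0.34 for both Kif5b and Kif5c, and 1 was mitotic, Kif22 with 0.39. Among the rest was Kif26b (0.33), with a mean of 0.995 in High. It passed the minimum only through Low, the group in which it was called higher, so its call cannot count. In High against Control 3 members were called lower, Kif21b (-0.39), Kif1a (-0.36) and Kif1b (-0.26), a motor of mitochondria and vesicles, beside 2.49% of all genes called and 2.44% called lower. In Low against Control 0 members were called, beside 4.32%, and the Kifc3 call was lost.

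**Figure D3:**
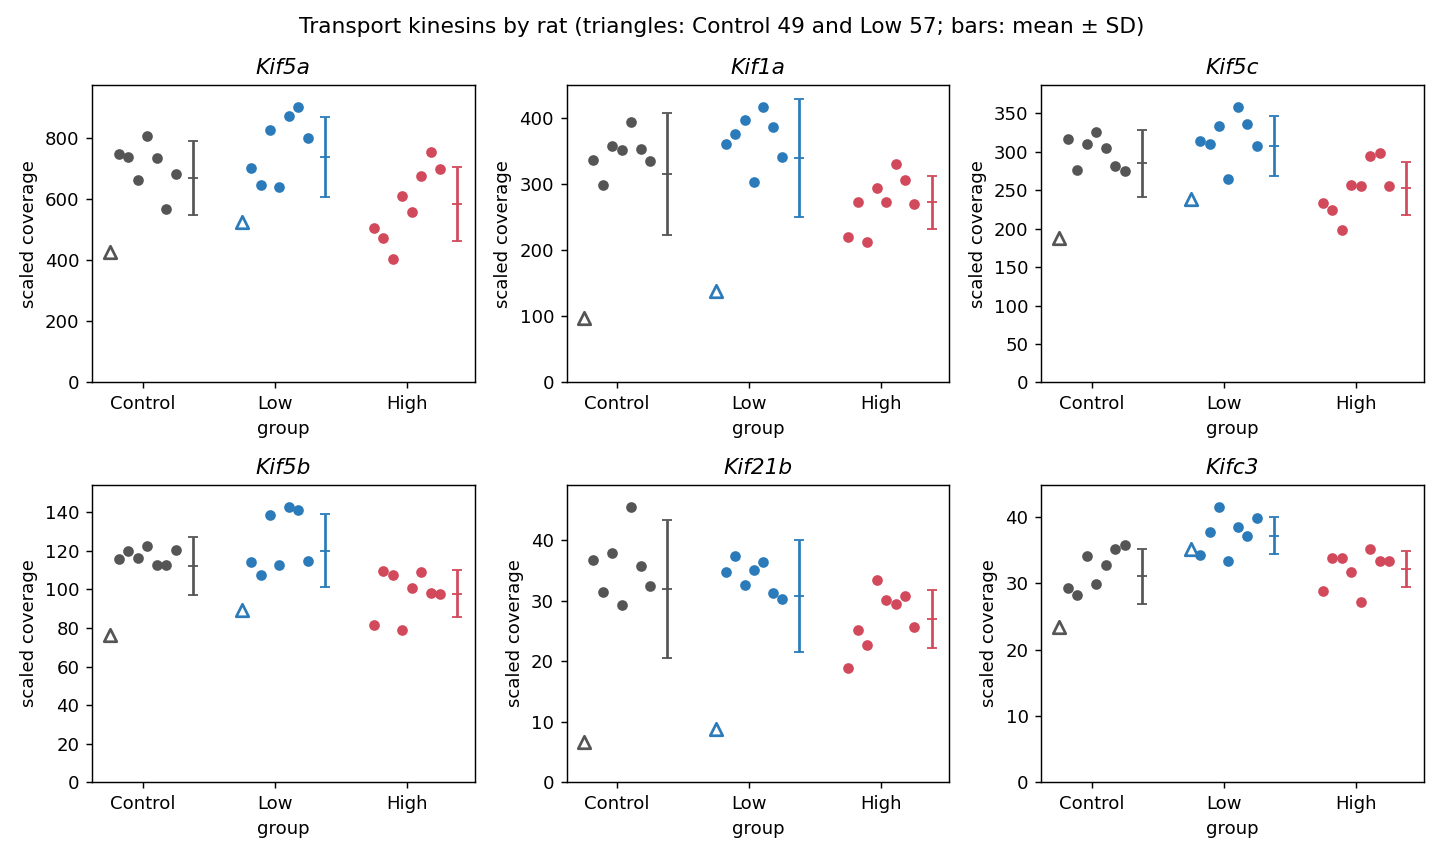
Scaled coverage of Kif5a, Kif1a, Kif5c, Kif5b, Kif21b and Kifc3 in each of the 24 rats, with the mean ± SD of 8 rats beside each group. Triangles are Control 49 and Low 57, which lie far below their groups for Kif1a (97.8 and 138) and Kif21b (6.57 and 8.82), while Low 57 lies within its group for Kifc3.

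Among the mitotic motors tested, Kif20a and Kif22 had the largest differences in Low, and neither was called over all 24 rats. Kif20a (ENSRNOG00000024428, chromosome 18) had a lowest, median and highest level of 3.71, 4.35 and 10.6 in Control, 3.44, 6.55 and 7.65 in Low and 3.65, 4.35 and 5.24 in High. Its log2 difference was 0.27 ± 0.16 in Low against Control (adjusted p = 0.380) and 0.38 ± 0.16 in Low against High (adjusted p = 0.117). The high values were those of libraries 56 to 62, with 10.6 in Control 56 and 6.30 to 7.65 in Low 57 to 62. Low 63 and 64, of the same dose, had 4.31 and 3.44, and the 7 other Control rats 3.71 to 4.82.

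Kif20a was higher in all 7 of libraries 56 to 62 than in all 17 others, which held for 1 of the 30 members and for 0.607% of all genes. The same libraries carried the high share of minus-strand mitochondrial coverage. Its neighbour Cdc23, a subunit of the anaphase-promoting complex on the opposite strand, overlaps Kif20a over 1910 bases, 22.5% of its span, and stood at 23.0 to 37.9 in libraries 56 to 62 and 19.0 to 36.5 in the others. In 15 of the 16 Control and High tables an assembled locus lay over Kif20a on its own strand. It held 0.218 to 5.78 times the coverage of the gene, with a median of 3.87, and the Low tables hold no loci. The part of the neighbour, of the loci and of libraries 56 to 62 in the Kif20a level was not tested. Without Control 56 alone, Kif20a was called in Low against Control (0.41, adjusted p = 0.0352). Without libraries 56 to 62, which leaves 2 Low rats, the difference was -0.12 ± 0.14.

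Kif22 (ENSRNOG00000020281, chromosome 1) had a lowest, median and highest level of 0.795, 1.03 and 1.65 in Control, 0.913, 1.69 and 3.06 in Low and 0.691, 1.05 and 1.71 in High. Its log2 difference was 0.39 ± 0.13 in Low against Control (adjusted p = 0.0838) and 0.38 ± 0.13 in Low against High (adjusted p = 0.0607). Low 57 to 62 held 1.55 to 3.06 and Low 63 and 64 1.28 and 0.913, while Control 56 had 0.873, so Kif22 was not high in all of libraries 56 to 62. Without these libraries the difference from Control was 0.01 ± 0.19. Without Low 64 alone Kif22 was called in Low against Control (0.46, adjusted p = 0.0232) and in Low against High (0.45, adjusted p = 0.0208), and the latter call was also gained without High 67 or High 70.

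Kif23 had a lowest, median and highest level of 1.29, 2.02 and 2.61 in Control, 1.13, 1.93 and 2.71 in Low and 1.41, 1.81 and 2.22 in High, and its differences lay between -0.06 and 0.05. Kifc1 had 0.909, 1.01 and 1.30 in Control, 0.475, 0.957 and 1.28 in Low and 0.820, 1.09 and 1.41 in High. Its difference was -0.11 ± 0.09 in Low against High (adjusted p = 0.465). Both genes overlapped between all groups.

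Kif15 and Kif28p lay under the minimum level and were tested only without it. Kif15 had a lowest, median and highest level of 0.306, 0.837 and 1.70 in Control, 0, 0.637 and 1.65 in Low and 0.789, 1.26 and 1.91 in High, and without the minimum its difference in Low against High was -0.49 ± 0.16 (adjusted p = 0.0702). Kif28p (ENSRNOG00000050602, chromosome 13), a motor linked to mitochondria and chosen here after its values were seen, had 0.432, 0.607 and 0.978 in Control, 0, 0.155 and 0.407 in Low and 0.277, 0.507 and 1.15 in High. Every Low rat lay below every Control rat, as for 1 of the 42 members above 0 and for 1.45% of all genes above 0. Without the minimum Kif28p fell in Low against Control (-0.51 ± 0.10, adjusted p = 0.0018) and in Low against High (-0.43 ± 0.10, adjusted p = 0.0062), beside 3.67% and 4.94% of genes called lower. It overlaps Ahctf1 on the same strand over 400 bases, and reads there could be given to either gene. Reference genes at 0 numbered 12813 to 14387 in Low, 11479 to 12379 in Control and 11323 to 12400 in High. The part of this in the levels of Kif28p and Kif15 was not tested. The Low dose and the kind of table cannot be told apart for Kif28p either.

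**Figure D4:**
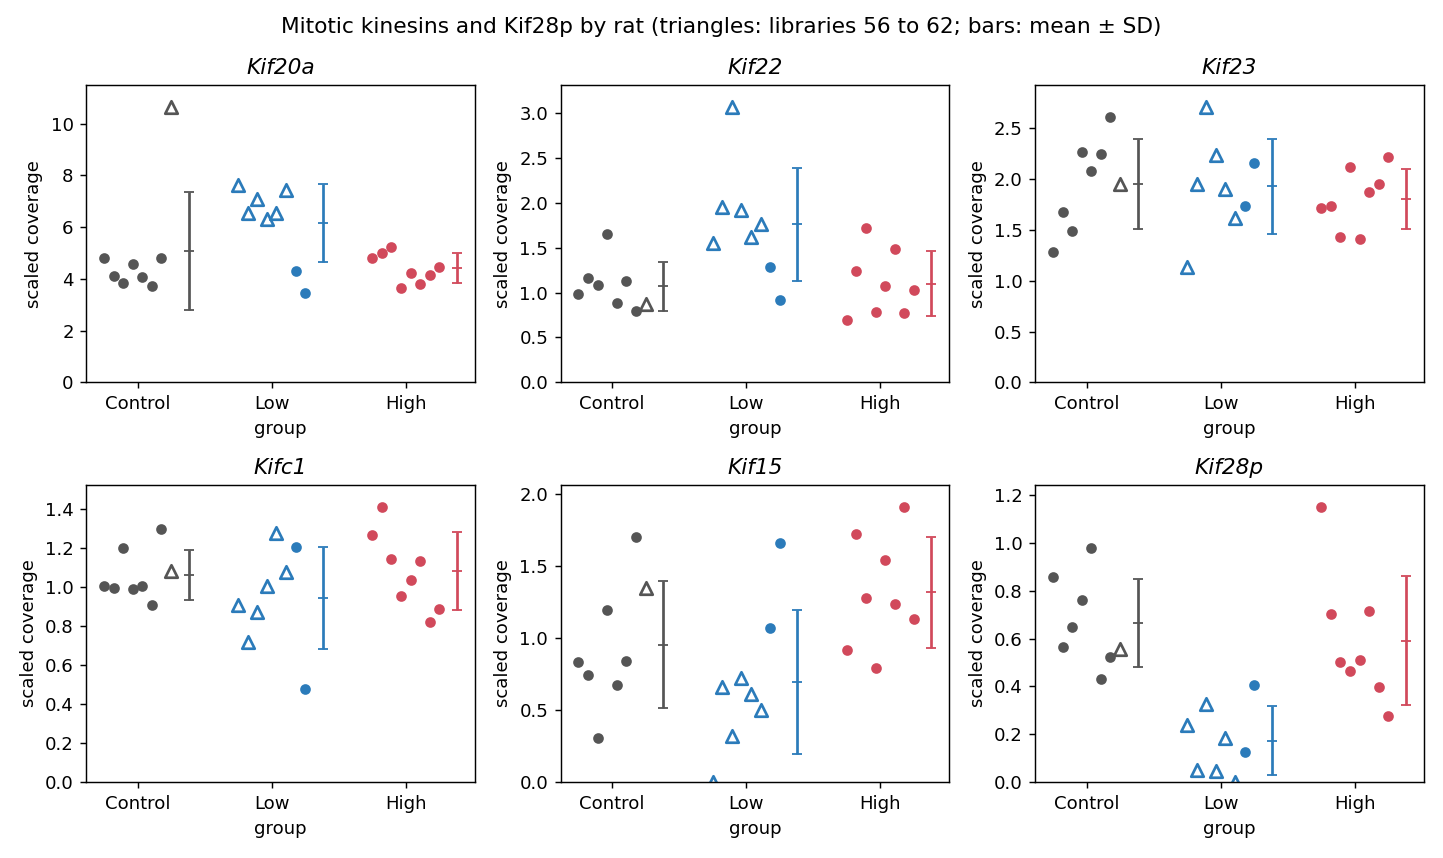
Scaled coverage of 5 mitotic kinesins and Kif28p in each of the 24 rats, with the mean ± SD of 8 rats beside each group. Triangles are libraries 56 to 62. They hold the high Kif20a values (6.30 to 10.6) in both groups, Control 56 lies low for Kif22 (0.873), and the Low rats lie at 0 to 0.407 for Kif28p.

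The tables also give FPKM, a fragment count scaled by gene length and library size. For some kinesins the relation of the 2 columns differed between the Low tables and the others. The Low dose and the kind of table cannot be told apart in this. The ratio of coverage to FPKM, divided by that of the median gene of the library, was 0.124 to 0.131 for Kifap3 in Low against 0.388 to 0.764 in Control and 0.363 to 0.750 in High. For Kif3a it was 0.494 to 0.524 in Low against 0.923 to 0.986 in Control and 0.917 to 0.994 in High. Kif5a ran the other way, with 0.876 to 0.929 in Low, 0.682 to 0.698 in Control and 0.692 to 0.705 in High. Kif1a had the ratio of the median gene in every library.

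The Low ratios lay apart from all 16 others by more than 1% for 8 of the 30 members tested, Kif3a, Kif3b, Kif5a, Kif5c, Kif23, Kif26a, Kif27 and Kifap3, and for 9.67% of 14816 genes. In FPKM, Kifap3 was 15.8 ± 3.67 (SD, n = 8) in Control, 108 ± 8.06 in Low and 16.4 ± 4.07 in High, and Kif3a was 15.6 ± 2.59, 46.7 ± 5.85 and 14.95 ± 1.59. On the FPKM scale the log2 difference of Kifap3 in Low against High was 2.68, beside 0.30 in coverage. The size of the Kifap3 difference depended on the column read. With FPKM limma called 24 of 26 members in Low against Control, all higher, beside 89.7% of all genes called and a median over all genes of 0.53.

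**Figure D5:**
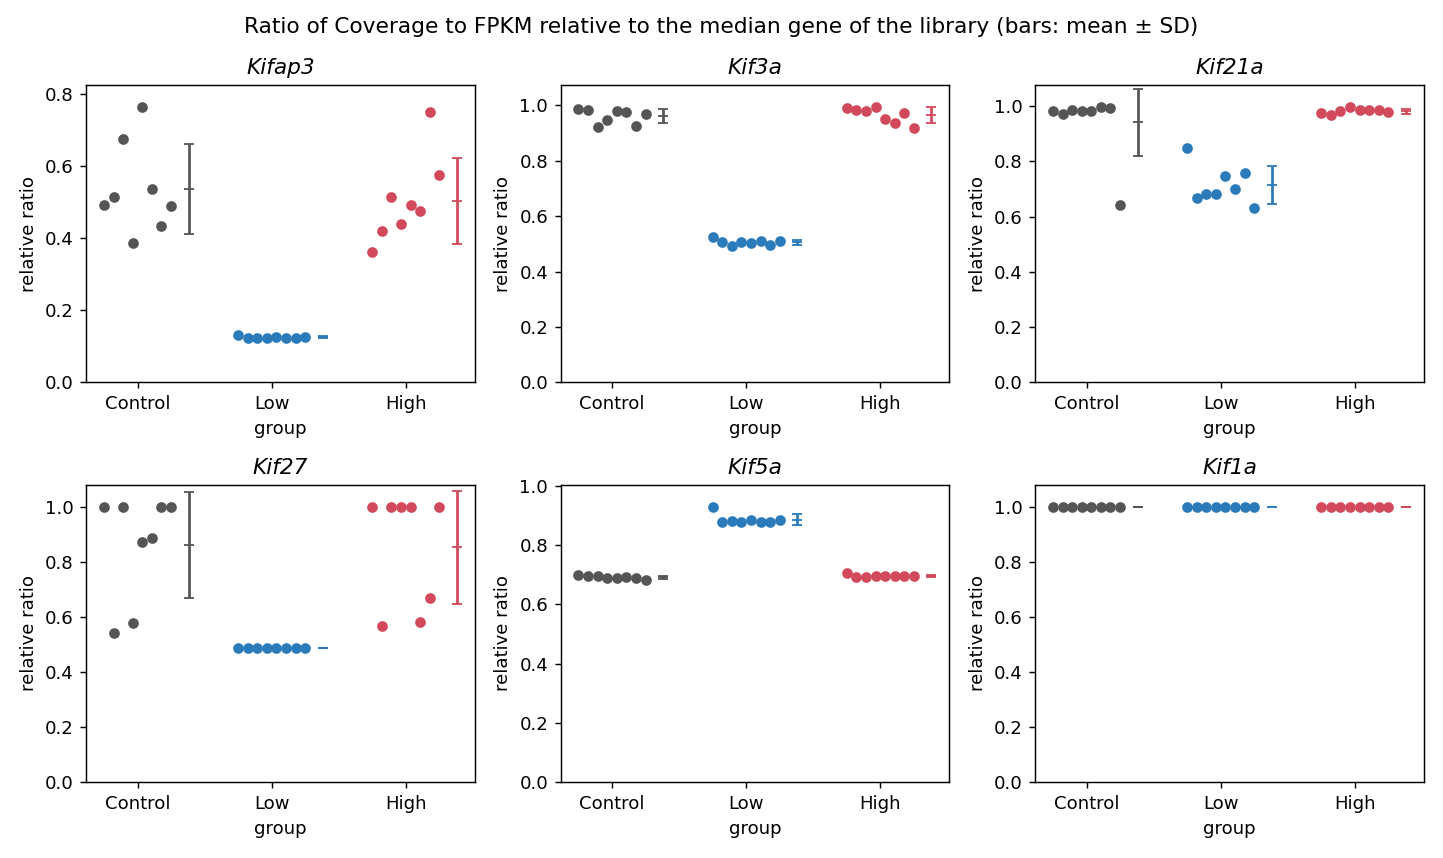
Ratio of the Coverage column to the FPKM column for 6 Kif genes, relative to the median gene of the same library (no unit), for 8 rats a group, with the mean ± SD beside each group. Low rats lie apart for Kifap3 (0.124 to 0.131), Kif3a and Kif5a, and all 24 rats lie at 1 for Kif1a.

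The partners of the motors gave few calls. Of 29 kinesin light chain and cargo adaptor genes tested, 0 were called in Low against Control or High against Control and 1 in Low against High, where 11.7% of all genes were called and 5.3% called higher. This was Arl8b (0.22 ± 0.07, adjusted p = 0.0489), a small GTPase that joins lysosomes to kinesin. Of 25 genes of cytoplasmic dynein, dynactin and their adaptors, 0, 0 and 2 were called, the last beside the same 11.7%. These were Pafah1b1 (0.30 ± 0.10, adjusted p = 0.0491), the dynein regulator Lis1, and the light chain Dynlt3 (0.21 ± 0.06, adjusted p = 0.0164), both higher in Low. The dynein list had 23 of 25 genes higher in Low against Control with a median of 0.12, and the adaptor list 22 of 29 with 0.10, beside 0.13 for the transport motors and 0.06 for all genes. High against Control gave medians of -0.02 for dynein and -0.04 for adaptors beside -0.08 for the transport motors, and in Low against High 0.13 for both beside 0.20. The lists were not tested against each other.

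Of 24 proliferation genes outside the kinesins, such as Mki67, Top2a and Cdk1, 12 reached the minimum level and 0 were called in any of the comparisons. The median of their summed level was 51.4 for Control rats, 52.0 for Low rats and 47.0 for High rats. The summed mitotic kinesins had medians of 11.4, 14.2 and 11.9, and the summed transport kinesins 2154, 2248 and 1875, with ranges that overlapped between all groups. Of the cell type markers tested (6 neuron, 5 astrocyte, 6 oligodendrocyte, 5 oligodendrocyte precursor, 6 microglia, 2 endothelium, 2 ependyma, 2 choroid plexus, 6 striatum, 3 neuroblast and 4 blood genes), 1 was called in 1 comparison, the endothelial transporter Slco1a4 in Low against High (0.33 ± 0.10, adjusted p = 0.0235). The neuron markers had a median log2 difference of 0.12 in Low against Control, -0.09 in High against Control and 0.17 in Low against High. These had the direction of the scaled transport medians each time, and so had the medians over all genes, 0.06, -0.03 and 0.09. Oligodendrocyte markers gave 0.10, -0.15 and 0.23, and striatum markers -0.60, -0.31 and -0.23. The part of these cell types in the kinesin differences was not tested.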

How the data were processed

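The authors sequenced strand-specific libraries of polyadenylated RNA and, per the labels, used FastQC, Trimmomatic, TopHat2 and StringTie with mRatBN7.2; no versions are given in the sources used here, and the build behind the coordinates of the tables could not be settled, so genes are placed by chromosome only. Each of the 24 deposited tables holds Coverage (a signal, mean depth per base), FPKM and TPM per gene as the authors deposited them. In the Control and High tables the TPM column shares its total with assembled loci and was read as a score per the file headers and values.

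Coverage was summed per reference gene and scaled to 1000000 per library. Kif genes were taken by name. Genes with a mean of at least 1 (15644) entered limma 3.58.1 (R 4.3.3; trend and robust) on log2(value + 1), with 3 groups of 8 rats in 1 fit and no covariate, two-sided, and Benjamini-Hochberg adjustment over all genes; calls had an adjusted p under 0.05. Fold changes are on the log2(value + 1) scale, which understates changes of low genes. No read counts were used, so precision comes from the spread between rats. The scripts were tested on simulated data.

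Full values were given for the 5 transport and 5 mitotic members with the highest means, members past the threshold or with an unadjusted p under 0.05, and the 2 with the largest increase and decrease in each comparison; members named beyond this rule (Kif21b, Kif13b, Kif1b, Kif3a and Kif28p) were chosen after their values were seen. The members and lists were chosen with earlier results of these data known. Alternatives covered scaling, filter, pseudocount, column, model and each rat left out. Sequences are from RefSeq, on GRCr8.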

Additional observations from a re-analysis of the deposited data

Results flagged for a closer look

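Among 54 sets of 8 values (16 named members and 2 list sums in 3 groups), 8 held a value past Dixon's 95% limit. The measure was the gap of a value to the rest, divided by the range. For independent sets chance gives about 1 in 20. These sets share rats, the transport sum holds Kif1a, Kif5c and Kif5b, and some members were named for their values. The count is therefore a description. Control 49 was low for Kif1a at 97.8 (other Control rats 299 to 394), for Kif5c at 188 (275 to 326), for Kif5b at 76.1 (113 to 123) and for the summed transport kinesins at 1236 (2037 to 2347). Low 57 was low for Kif1a at 138 (303 to 417), and Low 61 for Kifap3 at 21.2 (27.7 to 30.04). Control 56 was high for Kif20a at 10.6 (3.71 to 4.82) and Control 52 for Kif22 at 1.65 (0.795 to 1.17).

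Kifap3 differed between the concentrations in the test of that difference itself, by 0.30 on the log2 scale in Low against High (limma, adjusted p = 0.0491), the call that 19 of the 24 fits without 1 rat lost.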

How the results depend on the processing

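No paired analysis was possible because the groups share no replicate number. Leaving out Control 49 with Low 57, or libraries 56 to 62, was chosen after seeing the data. The calls of single members were few and stood near the threshold. In Low against Control the 1 member called became 24 with FPKM, 7 with TPM, 3 with the sum outside the mitochondrial genome and 2 with no filter (Kifc3 and Kif28p), where 89.7%, 25.4%, 10.8% and 4.54% of all genes were called. It became 0 with libraries 56 to 62 as a covariate or left out, no scaling, only the groups compared, without Control 49 and Low 57, or the exact Wilcoxon rank-sum test. Without 1 rat it was 0 to 2, and Kif26b, called without Low 57, passed the minimum only through Low. In Low against High the 1 member called became 26 with FPKM, 10 with TPM, 6 with the sum outside the mitochondrial genome and 17 without Control 49 and Low 57 (Kif26b, which passed only through Low, among them), where 89.8%, 25.2%, 16.7% and 28.8% of all genes were called. It became 0 with libraries 56 to 62 as a covariate or left out, median-of-ratios scaling or a minimum mean of 5; without 1 rat it was 0 to 5, with 5 without Control 49 or Low 57. The Kifap3 call was also lost with no filter, no scaling, only the groups compared, no trend and robust fitting, and the rank-sum test, where the 1 member called was Kif28p, Kif15, Kifc3, Kif22 and Kifc3 in turn. In High against Control 0 became 3 without Control 49 and Low 57 and stayed 0 without any 1 rat.

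The median of the mitotic members in Low against Control (-0.03) was -0.13 with a pseudocount of 0.1, 0.10 with FPKM, 0.064 with TPM and -0.85 with overlapping assembled loci added; in Low against High (-0.01) it was -0.10 without scaling, 0.12 with FPKM and -0.61 with loci. The transport median in Low against Control (0.13) was 0.60 with FPKM and -0.88 with loci, and in Low against High (0.20) -0.0078 without scaling, 0.63 with FPKM and -0.76 with loci, which the Low tables lack by construction. In High against Control (-0.08) it was 0.10 without scaling. The median of all genes shifted to 0.53 and 0.52 with FPKM, to 0.17 and 0.15 with TPM, and without scaling to 0.14 in High against Control and -0.12 in Low against High. Kifc2 reversed with FPKM in both comparisons of Low (0.59 and 0.61), Kif19 in Low against High (0.23), and with loci Kifc3 in Low against Control (-0.51) and Kifap3 in Low against High (-0.93). Of 1676 values of single members under alternatives, 40 lost a call and 62 gained one, and 66 changed sign with neither value past the threshold. For all of these the cause was not tested beyond what the construction shows. Of the 13 mitotic members 9 lay below a scaled coverage of 1, where the pseudocount shrinks log2 differences.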

Other observations

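The Control and High tables hold, beside each reference gene, loci assembled from the reads. A same-strand locus lay over 28 of the 43 Kif genes in all 16 tables, and the ratio of its coverage to that of the gene had a median of 1 over these genes. For Kif5a locus and gene had the same coverage in every table. Kif28p stood at the other end, with a locus at 9.98 to 32.5 times its own coverage, and it overlaps Ahctf1 on that strand.

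On the opposite strand of the Kif genes, Control 56 held 340 assembled loci, over 33 of the 43 genes, against 12 to 29 in the other 15 tables. On the same strand Control 56 held 55, inside the 51 to 82 of the others.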
